A study of Danio rerio with 6 samples.

Results

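Oxidative phosphorylation makes ATP in the inner membrane of mitochondria. Complexes I and II pass electrons from NADH and succinate to ubiquinone, complex III passes them on to cytochrome c and complex IV to oxygen, and complex V, the ATP synthase, uses the proton gradient that results. Most subunits are encoded in the nucleus and imported, whereas a few core subunits of complexes I, III, IV and V are encoded in the mitochondrial genome, so the chain is built from transcripts of both genomes. Absorptive enterocytes depend on this ATP for the ion gradients that drive nutrient uptake.

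The genes described here are the rows whose symbol, without regard to case, begins with the names used for the subunits: nduf for complex I, sdha to sdhd for II, uqcr and cyc1 for III, cox4 to cox8 for IV, atp5 for V, and MT-ND, MT-CYB, MT-CO and MT-ATP for the mitochondrial genome. This gave 118 of the 35117 Ensembl IDs counted, 105 nuclear and 13 mitochondrially encoded. The symbol rule also takes in 11 assembly factors, which help to build complexes I and II without being part of them, and 2 copies of the inhibitor of the ATP synthase. NDUFA4 and its relatives were placed with complex IV, where the protein resides, although the name is that of a complex I subunit.

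RNA was sequenced from cells sorted out of zebrafish larvae of the EK strain, listed as wild type in the labels, at 6 days after fertilization. All larvae had been gavaged at 5 days with 1 to 2 nl of Alexa Fluor 568 dextran at 2.5 mg/ml. The intestinal epithelial cells (IEC, 3 libraries) were sorted for a cldn15la-GFP reporter of the gut epithelium, and the lysosome rich enterocytes (LRE, 3 libraries) for GFP and dextran together, 24 hours after gavage. Whether the IEC gate left out cells with dextran is not in the labels, and neither is the number of larvae in a library or whether the numbered libraries are separate pools. The spread behind each p-value is therefore that of these libraries and may be technical.

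Libraries held 39590129 to 53250871 counts. The enterocyte markers cldn15la, FABP2, VIL1, epcam and cdh1 had reads in all 6 libraries, and FABP2 was lower in LRE (log2 fold change -2.21, edgeR adjusted p = 0.0304). The 9 IDs of the list of LRE markers summed to between 481 and 651 CPM in IEC and between 16705 and 36529 CPM in LRE. CPM here are counts divided by a library total that was adjusted with edgeR's TMM factor, on the usual CPM scale. Of the 9 IDs, edgeR called 7 higher at an adjusted p under 0.05, against 2.3% of all tested genes. DAB2 (ENSDARG00000053091, log2 fold change -0.08) and LRP2 (2.42) were not called. LRE library 1 stood apart: it detected 19396 genes, where the other 5 libraries detected 22974 to 25610. IEC library 1 had the highest sum of enteroendocrine markers, 15584 CPM against 3334 and 3673 in the other IEC libraries and 144 to 1347 in LRE. In sorted bulk RNA, fewer cells of a type and less RNA per cell cannot be told apart.

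Transcripts of the 13 mitochondrially encoded genes took a larger share of LRE 1 and LRE 2 than of any IEC library, but IEC 1 lay above LRE 3 and none of the 13 passed the test. Transcripts of the 105 nuclear genes took between 0.982% and 1.69% of a library, with the lowest share in LRE 1, a rank that depended on the denominator. Among the nuclear genes 1 passed, cox7a1, a complex IV isoform gene that was higher in LRE. The next largest nuclear difference was in another complex IV isoform gene, ENSDARG00000054588, which did not pass.

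The mitochondrially encoded genes took 8.73%, 4.71% and 4.18% of the counts in IEC libraries 1, 2 and 3, and 21.7%, 11.4% and 6.19% in LRE libraries 1, 2 and 3. IEC 1 therefore lay above LRE 3, and the highest value was that of LRE 1. The nuclear genes took 1.69%, 1.41% and 1.51% of the counts in the IEC libraries and 0.982%, 1.20% and 1.60% in the LRE libraries. The 95% Wilson interval of the lowest nuclear share, that of LRE 1, was 0.979 to 0.985%, and such intervals cover counting error only. In that library the mitochondrial share was the highest and the nuclear share the lowest of the 6. When genes with an MT symbol were taken out of the library totals, the nuclear share of LRE 1 was still the lowest, at 1.25% against 1.36% to 1.85% in the others. The most abundant ID of every library, ENSDARG00000080337, has no symbol in the name table, so whether it is mitochondrial is not known here; it took 17.4%, 5.70% and 5.19% of the counts in IEC and 19.3%, 17.6% and 8.29% in LRE. With that ID also taken out of the totals, a step chosen after seeing the data, the nuclear share was 2.29%, 1.57% and 1.67% in IEC and 1.67%, 1.69% and 1.87% in LRE, and LRE 1 was no longer the lowest.

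The ratio of mitochondrial to nuclear reads needs no scaling between libraries. It was 5.16, 3.34 and 2.77 in IEC 1, 2 and 3 and 22.1, 9.46 and 3.88 in LRE 1, 2 and 3. On the log2 scale the IEC libraries averaged 1.86 ± 0.46 (SD, n = 3) and the LRE libraries 3.22 ± 1.26 (SD, n = 3), a difference of 1.36. The difference was 0.74 without LRE 1 and 0.99 without both libraries numbered 1. Both groups are numbered 1 to 3 in the labels, which do not say what a number marks. Libraries of equal number deviated together, so they were also compared as pairs, a pairing that rests on these same data. LRE was above IEC in each of the 3 pairs, by 2.099, 1.503 and 0.49 in the pairs numbered 1, 2 and 3.

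**Figure D1:**
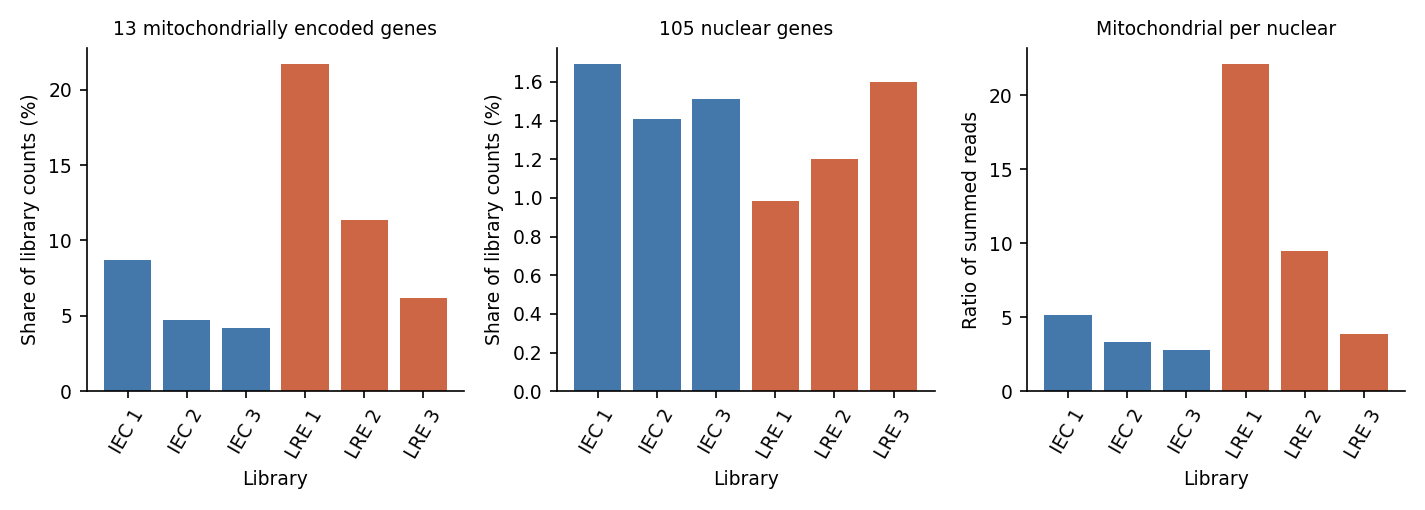
Bars give, for each library, the percentage of all counts taken by the 13 mitochondrially encoded genes and by the 105 nuclear genes, and the ratio of the summed reads of the 2 groups. The mitochondrial share runs from 4.18% in IEC 3 to 21.7% in LRE 1, while the nuclear share is lowest, 0.982%, in LRE 1.

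All 13 mitochondrial genes had a positive log2 fold change of LRE over IEC, between 1.08 (MT-ND1) and 1.87 (mt-nd4l), with a median of 1.47. The median over all 20979 tested genes was -0.06. None passed the edgeR quasi-likelihood test at a Benjamini-Hochberg adjusted p under 0.05, where 2.3% of all tested genes were called higher and 0.91% lower. At an unadjusted p under 0.05 there were 3 (mt-nd4l, MT-ND4 and MT-ND5), against 9.79% of all genes on the higher side and 7.19% on the lower side. DESeq2, which called 6.6% of all genes higher, called 1, mt-nd4l (adjusted p = 0.0197). limma voom, which called 2.89% higher, called none. With the replicate number as a block, 3 were called, mt-atp8 (adjusted p = 0.0299), mt-nd4l (0.0323) and MT-ND3 (0.0416), where 3.76% of all genes were called higher. The median fold change was 0.59 without LRE 1, 2.36 without IEC 1 and 1.53 without both libraries numbered 1. In none of the 13 did the 3 LRE libraries all lie above the 3 IEC libraries, a pattern found in 12.9% of all tested genes, because IEC 1 lay above LRE 3 in each. Within the pairs all 13 ratios were above 1 in each of the 3 pairs, which held for 21.7% of all tested genes; these ratios move together, since the genes share a library and a genome.

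The 7 mitochondrial ND genes encode membrane subunits of complex I. The gene with the largest difference, mt-nd4l, had 194, 97.5 and 83.6 CPM in the IEC libraries and 876, 330.1 and 169.9 CPM in the LRE libraries. LRE 1 and LRE 2 were above every IEC library and LRE 3 was between them. The fitted difference was 1.87 ± 0.61 (log2 fold change ± SE, edgeR adjusted p = 0.157). The neighbouring MT-ND4 had 4462, 1729.6 and 1516 CPM in IEC and 15806, 6346 and 2913 CPM in LRE, a log2 fold change of 1.70 ± 0.72. They are neighbours in RefSeq's gene order (GRCz12tu assembly), as are mt-atp8 and MT-ATP6, and in vertebrates both pairs overlap, so reads in an overlap may have been dropped or assigned to either gene. The smallest difference was that of MT-ND1, with 1527, 269 and 265 CPM in IEC and 2696, 1083 and 571 CPM in LRE (1.08 ± 0.81). MT-ND2 (1.47 ± 0.75), MT-ND3 (1.27 ± 0.74) and MT-ND5 (1.52 ± 0.62) lay between. So did MT-ND6 (1.14 ± 0.78), which in vertebrates is encoded on the opposite strand from the other 12. Strand use in counting is not given in the sources used here, so reads of MT-ND6 and any antisense RNA cannot be told apart.

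MT-CYB encodes cytochrome b, the electron-carrying core of complex III made in mitochondria. It had 13706, 4805 and 3871 CPM in IEC and 38543, 17912 and 7419.8 CPM in LRE (1.51 ± 0.76, adjusted p = 0.367). Here too LRE 1 and LRE 2 exceeded every IEC library, and LRE 3 exceeded IEC 2 and IEC 3 but not IEC 1. The 3 catalytic core subunits of complex IV are MT-CO1, MT-CO2 and MT-CO3. MT-CO1 had 23122, 10799 and 8206 CPM in IEC and 79599, 24320.0 and 15343 CPM in LRE (1.501 ± 0.77, adjusted p = 0.378). MT-CO2 differed by 1.45 ± 0.83. MT-CO3 had 23027, 6062 and 5524 CPM in IEC and 68028, 27498 and 13119.5 CPM in LRE (1.65 ± 0.83, adjusted p = 0.370). The membrane subunits of the ATP synthase made in mitochondria are MT-ATP6 (1.23 ± 0.77) and mt-atp8 (1.36 ± 0.75). In both, as in MT-ND1, MT-ND3 and MT-ND6, IEC 1 lay above LRE 2 as well as LRE 3, so that LRE 1 alone exceeded every IEC library.

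**Figure D2:**
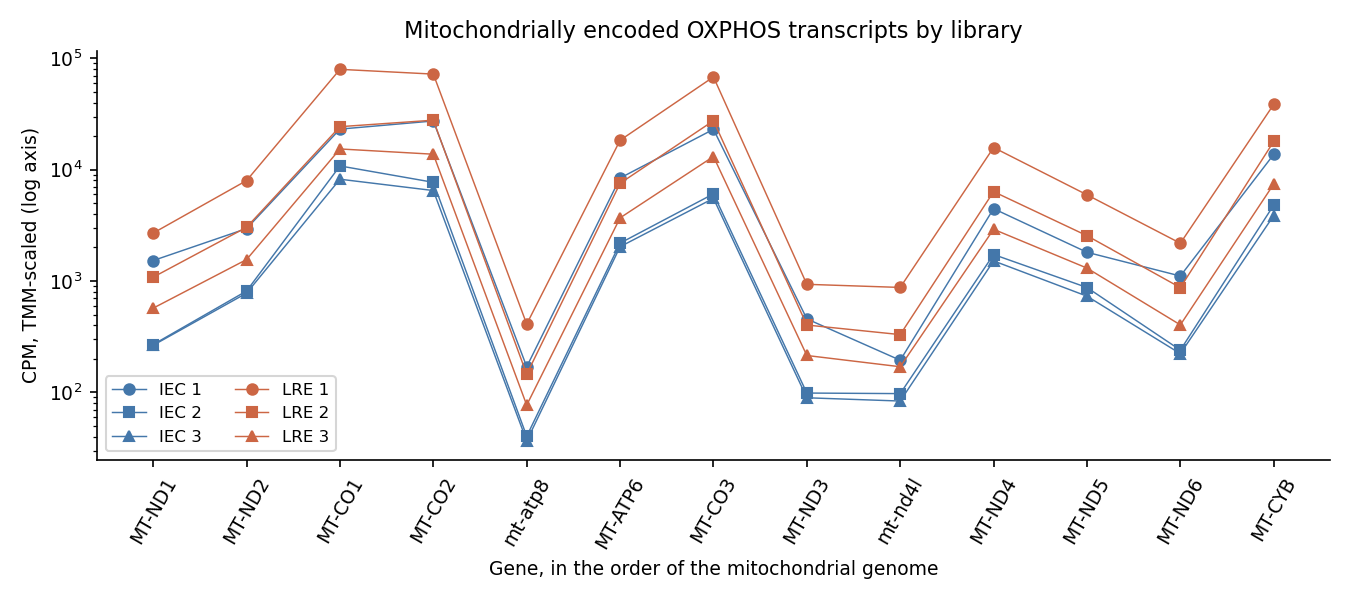
Points give the TMM-scaled CPM (log axis) of each of the 13 mitochondrially encoded genes, in the order of the mitochondrial genome, with a line for each of the 6 libraries. The lines run nearly parallel, with LRE 1 on top at every gene and IEC 1 above LRE 3 at every gene.

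Within the mitochondrial reads, the 3 MT-CO genes took 66.4% to 70.1% of the reads of the 13 genes, MT-CYB 12.3% to 14.9%, the 7 ND genes 11.5% to 12.3% and the 2 ATP synthase genes 5.99% to 7.92%. These are shares of reads, not of molecules, since reads were not divided by gene length. MT-CO3 alone of the 13 had shares that did not overlap between the groups, 21.3%, 17.0% and 18.5% in IEC and 21.7%, 22.9% and 21.7% in LRE; with IEC 1 at 21.3% the gap was narrow. MT-CO1 had 21.3%, 30.2% and 27.5% in IEC and 25.4%, 20.3% and 25.3% in LRE, so its groups overlapped.

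Of the 105 nuclear genes, 104 passed the filter on low counts. The one left out, ndufa4l2b, had 7 reads or fewer in every library. Of the 104, 1 was higher and none lower in LRE, against 2.3% and 0.91% of all tested genes. At an unadjusted p under 0.05 there were 4 higher and none lower, against 9.79% and 7.19% of all tested genes. Neither DESeq2, limma voom nor the fit with the replicate block called any lower, where they called 4.34%, 1.38% and 1.75% of all genes lower. The median log2 fold change was -0.10, close to the -0.06 of all tested genes, with 41 positive and 63 negative values. In 8 genes (7.69%) all LRE libraries lay above all IEC libraries and in none below, against 12.9% and 13.8% of all tested genes.

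The median log2 ratio of LRE to IEC was -0.67 in pair 1, 0.20 in pair 2 and 0.46 in pair 3, and the ratio was positive in 11, 92 and 100 of the 104 genes. The medians over all tested genes were -0.17, 0.00 and -0.03. Without IEC 1, 99 of the 104 genes had a positive fold change (median 0.37, all genes -0.02), and without both libraries numbered 1 the number was 101 (median 0.36, all genes -0.01). Summed over the nuclear genes, IEC 1 had 20999.8 CPM, IEC 2 had 10698 CPM and IEC 3 had 10790.4 CPM, and the LRE libraries 1, 2 and 3 had 14191, 12664 and 15624 CPM. The excess of IEC 1 is smaller on plain totals. The TMM factor of IEC 1 was 0.806 and those of IEC 2 and IEC 3 were 1.32 and 1.40, and as a share of plain totals IEC 1 was at 1.69% and IEC 3 at 1.51%. With plain totals in place of TMM, 11 of the 104 genes were positive (median -0.36), above the median of all genes on that scale, -0.46. The number of positive nuclear genes thus ran from 11 to 101 over these settings, and without both libraries numbered 1 none of them was called.

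**Figure D3:**
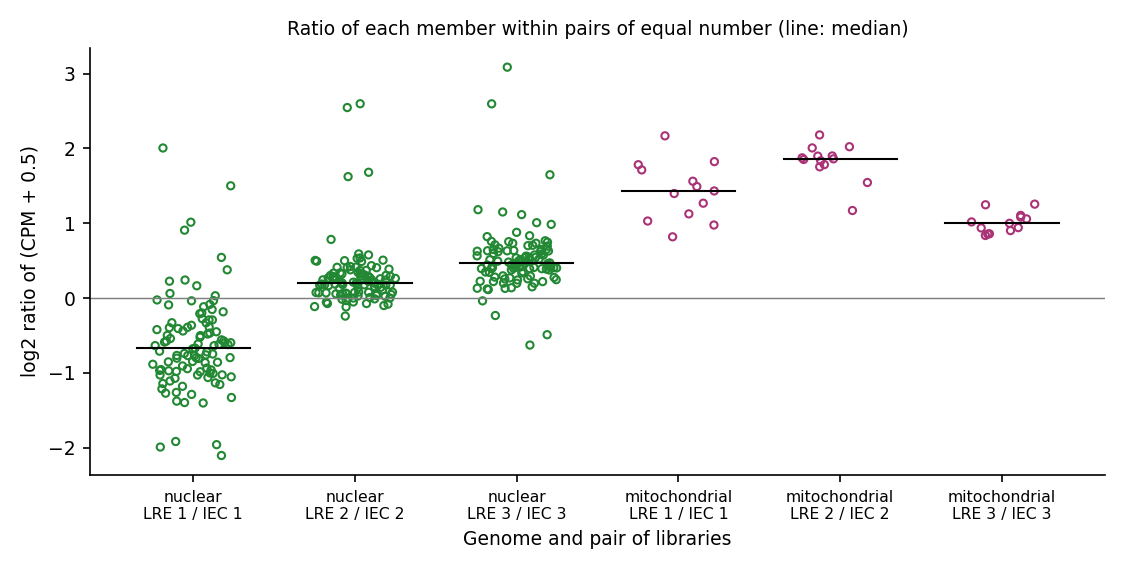
Each point is the log2 ratio of (CPM + 0.5) of LRE to IEC for 1 member, within the pair of libraries that share a number, and the line is the median. Nuclear genes centre at -0.67, 0.20 and 0.46 in pairs 1, 2 and 3, whereas all 13 mitochondrial genes lie above 0 in every pair.

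Complex I had 38 nuclear subunits, none of which passed (1 at an unadjusted p under 0.05; median -0.06, from -0.61 to 0.62). The highest fold change was that of NDUFS1, the largest iron-sulfur subunit of the arm that takes electrons from NADH. It had 85.4, 106 and 115 CPM in IEC and 173, 134 and 165 CPM in LRE, with no overlap between the groups (0.62 ± 0.26, adjusted p = 0.271). NDUFV1, which binds NADH, also had groups that did not overlap (0.26 ± 0.23). Every LRE library lay above every IEC library in 7.89% of the 38 subunits, against 12.9% of all tested genes. The lowest value among subunits with a mean of at least 10 CPM was that of the accessory subunit NDUFB1, with 51.8, 15.5 and 17.0 CPM in IEC and 13.4, 16.1 and 25.7 CPM in LRE. Its negative fold change of -0.61 ± 0.51 came with 1 high library, IEC 1.

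Complex II, succinate dehydrogenase, is encoded wholly in the nucleus. Its catalytic flavoprotein gene SDHA had 106, 224 and 131 CPM in IEC and 200.2, 224 and 142 CPM in LRE (0.30 ± 0.35), and the iron-sulfur subunit SDHB had 152, 118 and 102 CPM in IEC and 148, 176 and 158 CPM in LRE (0.38 ± 0.27). Both groups overlapped. The symbol SDHD, a membrane anchor, is carried by 2 IDs. ENSDARG00000030139 averaged 125 ± 38.2 CPM (SD, n = 3) over IEC and 125 ± 8.60 CPM (SD, n = 3) over LRE, and ENSDARG00000055712 stayed below 5 CPM in every library and had its highest value, 4.30 CPM, in IEC 1. None of the 5 subunits passed.

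None of the 9 nuclear genes of complex III passed (median 0.05). UQCRFS1, the Rieske iron-sulfur protein, had 298, 204 and 189 CPM in IEC and 279.9, 271 and 296 CPM in LRE (0.29 ± 0.29). The core protein gene UQCRC1 was the 1 complex III gene without overlap, with 206, 216 and 223 CPM in IEC and 244, 270.1 and 297 CPM in LRE (0.33 ± 0.26, adjusted p = 0.586). Such genes were 11.1% of the 9, against 12.9% of all tested genes with every LRE library above every IEC library. The highest and lowest fold changes were those of the core protein gene uqcrc2a (0.37 ± 0.27) and of the small subunit UQCR10 (-0.30 ± 0.39).

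Complex V had 18 nuclear subunits, none of which passed (none at an unadjusted p under 0.05; median -0.17). The catalytic head is formed by ATP5F1A and ATP5F1B, the alpha and beta subunits. ATP5F1B had 853, 828 and 828 CPM in IEC and 956, 972 and 1202 CPM in LRE (0.32 ± 0.30, adjusted p = 0.664). ATP5F1A had 578, 527 and 529.6 CPM in IEC and 604, 659 and 833 CPM in LRE (0.36 ± 0.30, adjusted p = 0.614). In both, every LRE library lay above every IEC library, and neither passed. These 2 were 11.1% of the 18, against 12.9% of all tested genes with that pattern. The lowest value was that of atp5mea, a gene of the membrane-bound e subunit (-0.57 ± 0.58), again with its highest level in IEC 1 (72.2 CPM, against 13.6 to 36.0 in the other libraries). The 3 genes of the proton-carrying c ring, atp5mc1 (-0.35 ± 0.34), ATP5MC3 (-0.08 ± 0.29) and atp5mc3b (0.04 ± 0.46), encode near-identical mature proteins, so their counts may be split between them. The inhibitor genes atp5if1a (-0.16 ± 0.38) and atp5if1b (-0.38 ± 0.38), whose product stops the synthase from running backwards, did not pass.

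The 7 assembly factors of complex I and the 4 of complex II had a median of -0.20, and none passed in edgeR (none at an unadjusted p under 0.05). The lowest among the 11 was NDUFAF6 (-0.79 ± 0.57). SDHAF4, which escorts the flavoprotein subunit of complex II, had 50.3, 15.6 and 15.7 CPM in IEC and 25.7, 17.6 and 21.1 CPM in LRE (-0.34 ± 0.48). Its high library was IEC 1, as in NDUFB1, in atp5mea and in the summed CPM of the nuclear genes.

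**Figure D4:**
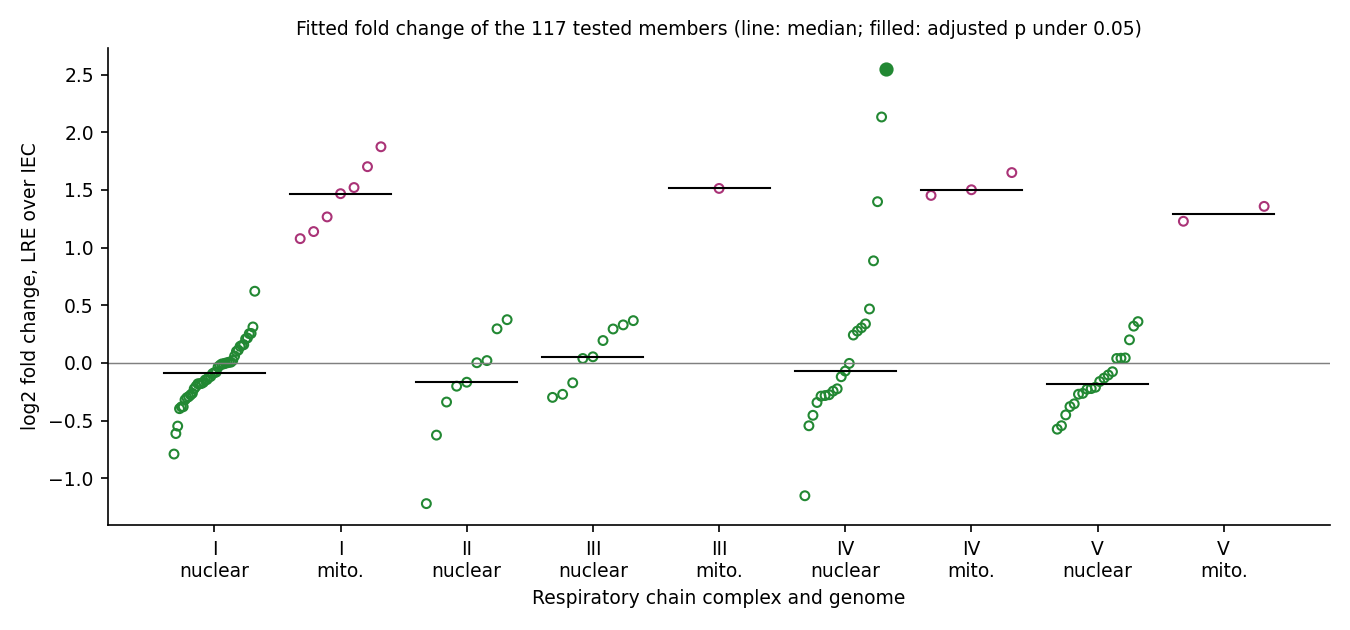
Points are the fitted log2 fold changes (LRE over IEC) of the 117 tested members, by complex and genome and including assembly factors and inhibitors, with a line at the median; the filled point passed at an adjusted p under 0.05. Mitochondrial genes lie between 1.08 and 1.87, most nuclear genes lie near 0, and the highest values are those of cox7a1 (2.54) and ENSDARG00000054588 (2.13) of complex IV.

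Complex IV had 22 nuclear subunits, of which 21 were tested and 1 passed (3 at an unadjusted p under 0.05, median -0.07). Of the 21, 9 had a positive and 12 a negative fold change. In 2 (9.52%) every LRE library lay above every IEC library, against 12.9% of all tested genes. The 3 highest fold changes of nuclear genes were those of isoform genes of complex IV, cox7a1, ENSDARG00000054588 and COX4I2. Several of its small nuclear subunits exist in alternative forms; in mammals COX7A1 is the form of heart and skeletal muscle and COX7A2 the widespread form. cox7a1 (ENSDARG00000069464) had 23.3, 7.37 and 12.2 CPM in the IEC libraries and 95.1, 47.1 and 107 CPM in the LRE libraries. The lowest LRE library was above the highest IEC library. It rose from 14.3 ± 8.17 CPM (SD, n = 3) to 83.1 ± 31.7 CPM (SD, n = 3), a log2 fold change of 2.54 ± 0.49 (SE, edgeR adjusted p = 0.0315, 0.00833 with the replicate block). A change beyond 2-fold was not called (edgeR's TREAT, adjusted p = 0.136; 0.729% of all genes were called higher by it). The call ended without IEC 2 (adjusted p = 0.0986), IEC 3 (0.148), LRE 1 (0.0588) or LRE 3 (0.118) and without both libraries numbered 1 (0.0620), while the log2 fold change stayed between 2.17 and 3.09 when single libraries were left out. Of all genes, 1.18%, 0.774%, 0.675%, 1.9%, 1.33% and 0.777% were called higher without IEC 1, IEC 2, IEC 3, LRE 1, LRE 2 and LRE 3, and 1.15% without both libraries numbered 1.

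The widespread form COX7A2 had 287, 141 and 137 CPM in IEC and 108, 146 and 157 CPM in LRE (-0.45 ± 0.36, adjusted p = 0.597). Of the reads of both genes, cox7a1 took 7.52%, 4.98% and 8.15% in IEC and 46.8%, 24.3% and 40.5% in LRE. This share is formed within a library and does not depend on the scaling. The 95% Wilson intervals of LRE 2, the lowest in its group, and of IEC 3, the highest in its group, were 23.5 to 25.2% and 7.60 to 8.73%. The related COX7A2L, which helps to join complexes III and IV into supercomplexes, had an overlapping range in both groups (0.30 ± 0.39).

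The symbol cox6a1 is carried by 2 IDs, 1 in capitals (COX6A1, ENSDARG00000054588) and 1 in lower case; it names subunit 6a, and the names used here tell the pair no further apart. ENSDARG00000054588 had 17.4, 4.41 and 8.60 CPM in IEC and 50.1, 28.2 and 54.6 CPM in LRE. Again all LRE libraries lay above all IEC libraries. The log2 fold change was 2.13 ± 0.51, and the adjusted p of 0.0674 missed the threshold; the gene was called with the replicate block (0.0184), with DESeq2 (0.00236), with limma voom (0.0231), and also without IEC 1 and with no filter on low counts, where 1.96% of all genes were called higher. ENSDARG00000054588 was not called with any of the other scalings or with a filter on CPM. Nor was it called without IEC 2, IEC 3, LRE 1, LRE 2 or LRE 3, or without both libraries numbered 1. With 1 library left out its edgeR adjusted p reached 0.235. ENSDARG00000022438, the most abundant nuclear gene of complex IV by CPM, had 741, 315 and 317 CPM in IEC and 453, 362 and 493 CPM in LRE (-0.07 ± 0.40). The share of ENSDARG00000054588 in the reads of both was 2.29%, 1.38% and 2.64% in IEC and 9.95%, 7.22% and 9.97% in LRE.

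COX4I2, which in mammals is a form of subunit 4 prominent in lung, had 6.08, 3.92 and 8.15 CPM in IEC and 8.06, 13.1 and 26.6 CPM in LRE. The groups overlapped, since IEC 3 was level with LRE 1, and the gene did not pass (1.40 ± 0.52, adjusted p = 0.212). The widespread COX4I1 differed by -0.12 ± 0.41 and cox4i1l by 0.34 ± 0.42. COX4I1 took 84.5%, 81.6% and 82.5% of the reads of the 3 genes in IEC and 75.5%, 79.0% and 74.7% in LRE, with no overlap. The COX4I2 share was 1.41%, 2.18% and 4.50% in IEC and 2.91%, 6.26% and 8.47% in LRE, and the cox4i1l share 14.1%, 16.2% and 13.0% and 21.6%, 14.7% and 16.8%. In the COX5A pair, COX5A took 31.0%, 36.1% and 34.6% in IEC and 39.0%, 41.7% and 41.8% in LRE, the rest being cox5aa; neither gene passed.

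**Figure D5:**
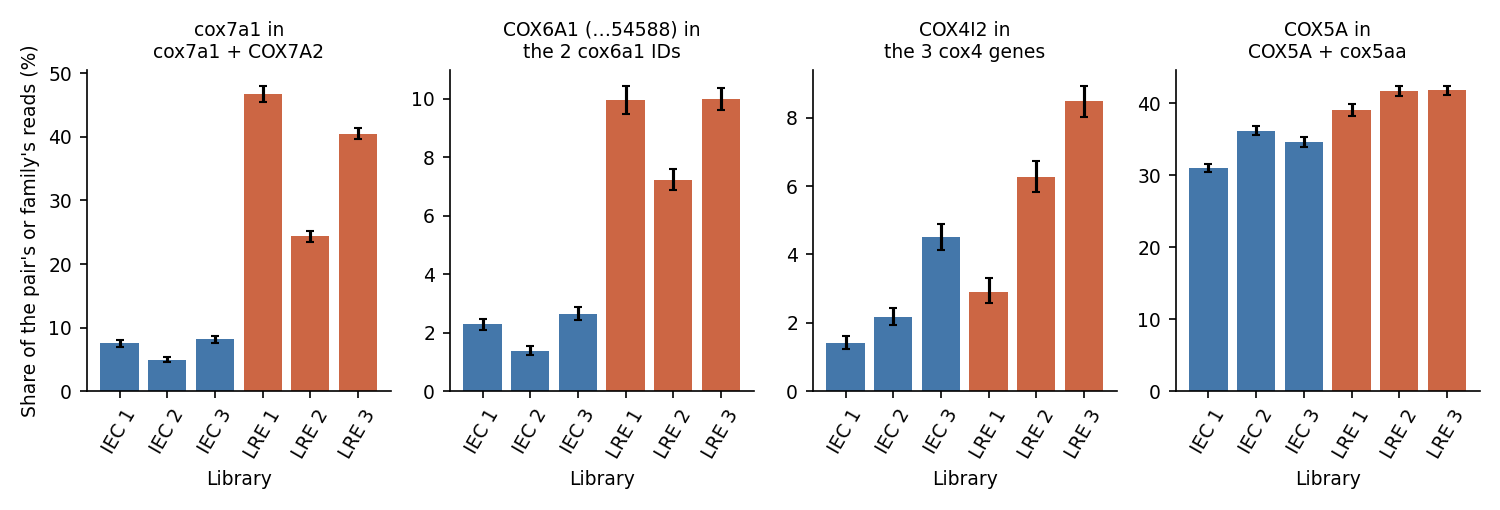
Bars give the share of the reads of an isoform family taken by 1 gene in each library, with 95% Wilson intervals that cover counting error only. The shares of cox7a1, ENSDARG00000054588 (shown by its last digits) and COX5A do not overlap between IEC and LRE, and those of COX4I2 do, since IEC 3 (4.50%) lies above LRE 1 (2.91%).

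The cox6b1 share of the reads of cox6b1 and cox6b2 was 51.3% to 60.1% in IEC and 51.6% to 56.3% in LRE, and the cox8a share of those of cox8a and cox8b was 35.9% to 43.3% and 29.9% to 46.7%. The lowest fold change of complex IV at 10 CPM or more was that of cox8a, with 129, 48.2 and 42.2 CPM in IEC and 49.4, 50.9 and 50.1 CPM in LRE (-0.54 ± 0.42). NDUFA4 (0.28 ± 0.43) and ndufa4b (0.47 ± 0.30) did not pass, and NDUFA4L2, with at most 73 reads in a library, had 0 reads in LRE 1, where a count of 0 allows up to 3. Of the IDs that share the symbol COX5B, ENSDARG00000015978 took 96.5% to 99.1% of the reads in every library and ENSDARG00000068738, the rare one, had a fold change of 0.89 ± 0.59. NDUFAB1 and ndufab1b, paralogs of the acyl carrier protein of complex I, had near-equal shares, with NDUFAB1 at 48.8% to 50.2% in IEC and 51.2% to 55.4% in LRE. NDUFA9, a complex I subunit, also had shares without overlap in the reads of NDUFA9 and ndufa9b. They were 88.0% to 88.8% in IEC and 89.5% to 90.5% in LRE. In the families of NDUFA4, atp5mc1, atp5mea, atp5if1a, SDHD and uqcrc2a every share overlapped between the groups. How often such shares differ in other gene families was not examined.

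Muscle markers were read beside cox7a1. All 15 tested muscle marker IDs, ckma, actc1b and pvalb2 among them, had a positive fold change and none passed. Their sum was 337, 674 and 1094 CPM in IEC and 807, 1776 and 2147 CPM in LRE. The groups overlapped in this sum, since IEC 3 lay above LRE 1. The part of muscle RNA in the values of cox7a1, ENSDARG00000054588 and COX4I2 was not tested. Other marker lists were read too, and the sums of the hepatocyte, exocrine pancreas, red blood cell and neuron lists also overlapped between the groups. Enteroendocrine markers were lower in LRE in all 8 tested IDs, with 3 called, against 0.91% of all tested genes. Their part in the nuclear values of IEC 1 was not tested. The 7 hepatocyte marker IDs were all positive, with sums of 191 to 514 CPM in IEC and 346 to 772 CPM in LRE, and none passed. The 9 exocrine pancreas IDs summed to 1567 to 4666 CPM in IEC and 419 to 5442 CPM in LRE, and red blood cell markers to 78.6 to 225 and 125 to 289 CPM. Leukocyte marker sums were 138 to 321 CPM in IEC and 41.6 to 90.1 CPM in LRE. Of 7 neuron marker IDs 1 was called higher, against 2.3% of all tested genes. Their sums were 231 to 369 CPM in IEC and 358 to 440 CPM in LRE. The goblet cell marker AGR2 and the 5 IDs of the kidney tubule list had no call. The part of these cells in the members' values was not tested.

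Other lists covered genes of pathways that feed electrons into the chain, not all of which do so themselves. In the list of the tricarboxylic acid cycle and pyruvate dehydrogenase, 1 of 20 tested genes was higher and none lower (median 0.36). Of all tested genes, 2.3% were called higher and 0.91% lower. In 9 (45.0%) every LRE library lay above every IEC library, against 12.9% of all genes. In 1 (5.0%) every LRE library lay below every IEC library, against 13.8% of all genes. That gene was IDH3A, of another mitochondrial isocitrate dehydrogenase (-0.37 ± 0.23, edgeR adjusted p = 0.469). The gene that passed was IDH2, which encodes a mitochondrial isocitrate dehydrogenase, with 112, 82.6 and 77.6 CPM in IEC and 230.2, 183 and 272 CPM in LRE (1.33 ± 0.29, adjusted p = 0.0492). Leaving out any single library ended its call (adjusted p from 0.0538 to 0.225), as did plain totals (0.212), RLE factors (0.0561) and upper-quartile factors (0.0592). Picked out after their values were seen, the succinyl-CoA ligase gene SUCLG2 (1.16 ± 0.27, adjusted p = 0.0621) and citrate synthase, CS (0.91 ± 0.31, adjusted p = 0.172), also had groups without overlap. SUCLG2 was not called in edgeR without the block but was called with it (adjusted p = 0.0303). The block, DESeq2 and limma voom each called 2 genes of the list higher, where they called 3.76%, 6.6% and 2.89% of all genes higher. Among 17 tested electron carriers and other feeders of the quinone pool none passed in edgeR. In 6 (35.3%) every LRE library lay above every IEC library and in none below, against 12.9% and 13.8% of all genes. DESeq2 called 4 higher, against 6.6% of all genes. None was called by limma voom or with the replicate block, where 2.89% and 3.76% of all genes were called higher. At an unadjusted p under 0.05 in edgeR there were 4 higher, against 9.79% of all genes. The latter 4 were ETFA (0.86 ± 0.24), ETFB (0.93 ± 0.27) and ETFDH (0.95 ± 0.28), which carry electrons from fatty acid oxidation, and SQOR (0.98 ± 0.26), which oxidizes sulfide. Their adjusted p ran from 0.0880 to 0.118.

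Lists of the machinery that makes the chain showed no calls outside the list of regulators. None of 73 tested genes for proteins of the mitochondrial ribosome passed in edgeR, DESeq2 or limma voom. Of these genes, none had an unadjusted p under 0.05 (median -0.28, all tested genes -0.06). They summed to 2763, 1489 and 1605 CPM in the IEC libraries and 1684, 1547 and 1702 CPM in the LRE libraries, highest in IEC 1. None of 36 further assembly factors passed (1 higher and 1 lower at an unadjusted p under 0.05; median -0.25), and none of 20 genes of mitochondrial transcription and RNA handling (1 at an unadjusted p under 0.05; median -0.10). The 11 genes of the outer membrane and uncoupling and the 11 of the cristae had none either (1 and none at an unadjusted p under 0.05). Over all tested genes, 9.79% had an unadjusted p under 0.05 on the higher side and 7.19% on the lower side. The 36 assembly factors summed highest in IEC 1, at 982 CPM, against 510 to 643 CPM in the other libraries. Of 13 tested regulators of mitochondrial biogenesis 1 passed, TFEB, better known for lysosomal genes (4.15 ± 0.50, edgeR adjusted p = 0.0049). Over all tested genes 2.3% were called higher and 0.91% lower. NRF1, a factor that activates nuclear genes of the respiratory chain, was at 33.8, 34.2 and 28.6 CPM in the IEC libraries and at 21.6, 21.3 and 26.2 CPM in the LRE libraries (-0.48 ± 0.26, adjusted p = 0.394), and GABPA, another such factor, did not pass either (-0.56 ± 0.28, adjusted p = 0.356). PPARGC1A, their coactivator, had overlapping groups (0.46 ± 0.39). In the same list ESRRG (1.32 ± 0.60, edgeR adjusted p = 0.313) and ESRRA (1.04 ± 0.56, adjusted p = 0.408) had positive fold changes and overlapping groups. In NRF1 and GABPA every LRE library lay below every IEC library. That pattern held for 4 of the 13 (30.8%), against 13.8% of all tested genes. The opposite pattern held for 1 (7.69%), against 12.9% of all tested genes. The median of the list was -0.33. Apart from TFEB, the regulators named here were picked out after their values were seen.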

How the data were processed

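HISAT2, HTSeq and the GRCz10 build are named in the submitters' processing notes; their versions, the annotation release and the strand and overlap settings: not given in the sources used here. Per the file contents, the authors deposited unnormalized counts, 1 whole number per Ensembl ID. Per the labels' protocols, RNA was amplified with a Clontech ultra-low-input kit. Symbols came from a name table (27000 of 35117 IDs); 118 of its 122 matching IDs were in the files. Reads shared with nuclear copies of mitochondrial genes are not resolved.

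LRE and IEC were contrasted in edgeR 4.0.16 (R 4.3.3; TMM, filterByExpr with a minimum count of 10, quasi-likelihood F test) over 20979 genes; an SE is the log2 fold change divided by the root of F. Alternatives were DESeq2 1.42.0, limma 3.58.1, other scalings and filters, a replicate block, and left-out libraries. The procedure was also run on simulated counts. Their spread between libraries was set lower than in these data, so that run gives no error rate for them. Across genes, residuals of log2 CPM about the group means had a Pearson's r of 0.268, 0.332 and 0.258 for equal numbers. For unequal numbers it was -0.232 to -0.0412. Residuals of a group cancel out, so the negative values in part follow from the positive ones. The pairing rests on these values alone, and the adjusted p of the replicate block share that limit. No 2 libraries of a group matched within sampling noise.

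Members, lists and tests were chosen with earlier results of these data known. Named genes are all mitochondrial members, every member that passed, per complex the most abundant and those with the highest and lowest fold change at 10 CPM or more, the isoform families, IDs that share a symbol, and up to 3 passing genes per related list; other genes were picked out after their values were seen, NDUFV1, UQCRC1, NDUFAF6, COX5A, cox5aa, NDUFAB1, ndufab1b, NDUFA9, ndufa9b, atp5if1a and atp5if1b among them. A gene that this rule takes in is not reported here.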

Additional observations from a re-analysis of the deposited data

How the results depend on the processing

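No result turned to a call in the opposite direction under any alternative run. Nuclear genes called higher numbered 1, or 2 with DESeq2, limma voom, no filter and the replicate block, 0 without both libraries numbered 1, and 0 to 2 when 1 library was left out; none was called lower in any. Mitochondrial genes called higher numbered 0, or 1 with DESeq2 and 3 with the replicate block, and their median log2 fold change ran from 0.59 to 2.36 when 1 library was left out. The other alternatives left these counts as they were, and beside COX6A1, mt-nd4l, MT-ND3 and mt-atp8 the block changed no call among the members named. The mean mitochondrial share was 7.22 percentage points higher in LRE, 2.92 points without LRE 1 and 4.34 points without both libraries numbered 1. It was 12.8 points higher with MT genes and the most abundant ID taken out of the totals, an alternative chosen after seeing the data. The groups overlapped in this share, and the cause of the difference was not tested. All 13 mitochondrial genes kept a positive fold change in all 16 alternative fits, whereas 23 named genes that were not called changed sign in at least 1. With 3 libraries a group, the median SE of 0.39 among nuclear members limits what could be called. Differences of that size were not detectable, and differences of several SE could be missed too. ENSDARG00000054588, at 2.13 ± 0.51, did not pass. The causes of the changes with single libraries were not tested.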
